A study of Mus musculus with 12 samples.

Results

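The regions described are 334 short stretches of the mouse genome with few CpG sites, far from any listed gene start, whose DNA methylation differed in liver tumors between an arsenite line and a control line. They were taken from the authors' deposited list of 1547 differentially methylated tumor regions as those with fewer than 10 CpG sites and a distance of more than 100 kb to the nearest listed transcription start site (TSS). The 3 deposited lists, for normal liver, non-tumor liver and tumors, held 1711 regions in all. The rule used site number and distance and no methylation value.

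The series profiled liver DNA of C3H/HeN males aged 74 weeks by reduced-representation bisulfite sequencing (RRBS), which reads methylation near the MspI cutting sites CCGG. The 3 tumor samples of the arsenite group (AATt) came from F2 males born to F1 mice that had been exposed in the womb to arsenite, a trivalent inorganic arsenic salt, and the 3 control tumor samples (CCTt) belonged to an earlier deposit and entered only through the authors' comparison. Line and deposit go together in the tumor comparison, so a difference between lines cannot be told apart from one between deposits. C3H mice are an inbred strain prone to liver tumors, and all groups share that background. Whether the samples came from separate mice is not stated, and the tumor label could not be checked against marker genes in lists of methylation differences.

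Every value below is a group difference of 3 samples against 3 samples from the authors' deposited table, in percentage points of methylation, so no value per sample, replicate error or read depth stands behind it and no test of a difference was run. Positive values are taken to mean more methylation in the arsenite line. The sources leave that sign undefined, and with the opposite sign every direction below would turn over.

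In mammals, methyl groups sit mainly on the cytosine of CG pairs. Most CG pairs outside CpG islands are methylated in normal tissue, and CpG-poor sequence between genes is where tumor genomes commonly lose methylation. The names CpG-poor and CpG-dense below refer to the number of listed sites in a region, not to their density. Median site number and length were 4 and 109 bp in the 334 regions, and 15 and 263 bp in the CpG-dense ones. The 334 regions are thus not shown to be CpG-poor sequence, and how their values relate to that loss was not tested. Regions far from a gene start can be enhancers, parts of long introns or sequence without known function, and a methylation difference there says nothing by itself about the nearest gene.

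The sequences of 4 of the 334 regions could be read, because they reach into promoter windows (250 bases before to 50 after a gene start) of the RefSeq promoter table, build GRCm38.p6. They are shown because they let the listed sites be counted in the DNA, and because each lies at or just before the start of a long noncoding RNA gene although its listed TSS is more than 100 kb away. Each is on the plus strand, 5′ to 3′, with every CG in capitals.
Gm31226 window, listed under Npy, chr6:49633421-49633666: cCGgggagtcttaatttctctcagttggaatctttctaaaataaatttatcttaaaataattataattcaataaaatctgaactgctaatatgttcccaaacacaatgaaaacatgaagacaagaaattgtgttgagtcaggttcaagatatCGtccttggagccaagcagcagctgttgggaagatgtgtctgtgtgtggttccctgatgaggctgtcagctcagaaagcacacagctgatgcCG
Gm27572 window, listed under Pde4d, chr13:108498632-108498816: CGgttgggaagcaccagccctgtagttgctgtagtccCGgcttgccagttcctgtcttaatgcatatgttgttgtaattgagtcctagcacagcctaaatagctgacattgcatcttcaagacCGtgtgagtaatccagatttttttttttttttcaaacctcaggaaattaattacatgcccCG
Gm39438 window, listed under AU023762, chr9:113443636-113443692: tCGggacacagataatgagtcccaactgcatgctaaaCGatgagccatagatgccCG
Gm29590 window, listed under Ly86, the part from chr13:37508392-37508448: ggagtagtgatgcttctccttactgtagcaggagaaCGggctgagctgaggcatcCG

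These stretches hold 2 to 4 CG pairs each, in 57 to 246 bases shown. The Npy region, 189063 bp upstream of the TSS of the neuropeptide Y gene, has 3 CG pairs in 246 bases, while 4 CpG sites are listed (20.1 points, 1 of them differentially methylated). The Pde4d region, 155361 bp upstream of a phosphodiesterase gene, has 4 CG pairs and 5 listed sites (27.9 points, 2 differentially methylated). The AU023762 region has 3 CG pairs and 5 listed sites (24.2 points, 2 differentially methylated). The 4th region, listed under Ly86, reaches into its window only in part and was negative (-24.2 points, 2 of 4 sites differentially methylated). In all 3 whole sequences the listed sites outnumber the CG pairs, which a count on 1 DNA strand cannot give, so a CG pair can enter the list as a site on each strand.

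The same held wherever it could be read in the 3 lists. All 10 regions that lie whole in a promoter window had more listed sites than CG pairs, 86 sites for 55 pairs in sum, and none had more than 2 sites per pair. Of 21 listed starts inside a window, 17 fell 1 base before a CG and 4 on its C, whereas 22 of 25 listed ends fell on the G and 3 on the C. Starts therefore appear to be counted from 0 and ends from 1, which would make a listed length 1 base too long. Coordinates are printed as listed. Each of the 4 windows also holds the MspI site CCGG, which reads the same on both strands and occurs in 52.8% of the 32817 windows of the table.

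The regions rested on few sites. Of the 334, 142 had 3 listed sites, 74 had 4 and 55 had 5. The median length was 109 bp, with a range of 5 to 514 bp. A single differentially methylated CpG site (DMC) supported 140 regions, or 41.9%. The share was 41.45% and 39.9% among CpG-poor regions within 10 kb and at 10 to 100 kb, and 35.55% in the whole tumor list, which includes the CpG-dense regions (0.985%). Among the 8 regions in which every listed site was a DMC, 7 had 3 sites, and the other, near N6amt1, had 4.

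Most of the regions had a positive difference, read here as higher methylation in the arsenite line. The authors' deposited table gave a positive difference for 273 of the 334 (81.7%, exact 95% interval 77.2% to 85.7%) and a negative one for 61, where 68.7% of the whole tumor list was positive and 31.3% negative. Among tumor regions with as few CpG sites, 69.97% of the 706 at 10 to 100 kb were positive (66.4% to 73.3%), and 64.8% of the 304 within 10 kb (59.2% to 70.2%). Of the 203 CpG-dense regions, with 10 or more sites, 48.8% were positive (41.7% to 55.9%). Intervals cover counting error only, and regions of the same list share their samples. The higher share of positive regions beyond 100 kb was known when these regions were chosen, so it is a description.

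Sorted by distance, the positive share of CpG-poor regions was higher in each farther bin. It was 64.8% within 10 kb, 69.3% at 10 to 50 kb and 71.6% at 50 to 100 kb. Beyond 100 kb it was 78.7% up to 200 kb (129 of 164 regions), 83.2% up to 500 kb (104 of 125) and 88.9% farther out (40 of 45). Intervals of neighbouring bins overlap. The 34 CpG-dense regions beyond 100 kb were 67.65% positive, with an interval of 49.5% to 82.6%.

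**Figure D1:**
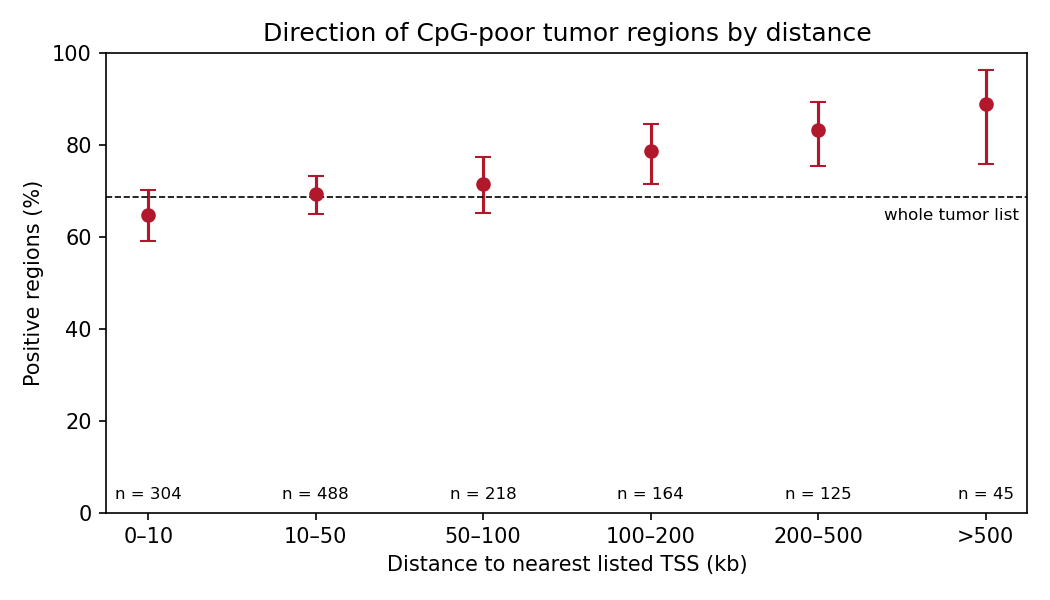
Share of positive regions (%, points) with exact 95% intervals (bars) among CpG-poor tumor regions, by distance to the nearest listed TSS in kb; the dashed line is the whole tumor list at 68.7%. The share is 64.8% within 10 kb and 88.9% beyond 500 kb.

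The sizes were close to those of the whole list. Positive regions had a median of 23.15 points and negative ones of -23.55 points, against 22.9 and -23.1 in the whole list. The quartiles of the sizes were 21.5 and 25.9 points, not far above the smallest listed size of 20 points. A difference of at least 25 points stood at 106 of the 334 regions (31.7%), against 29.0% of the whole list. At 30 points or more there were 18 positive and 5 negative regions. The share of positive regions was 84.3% with 1 DMC, 80.3% with 2 and 79.2% with 3 or more.

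**Figure D2:**
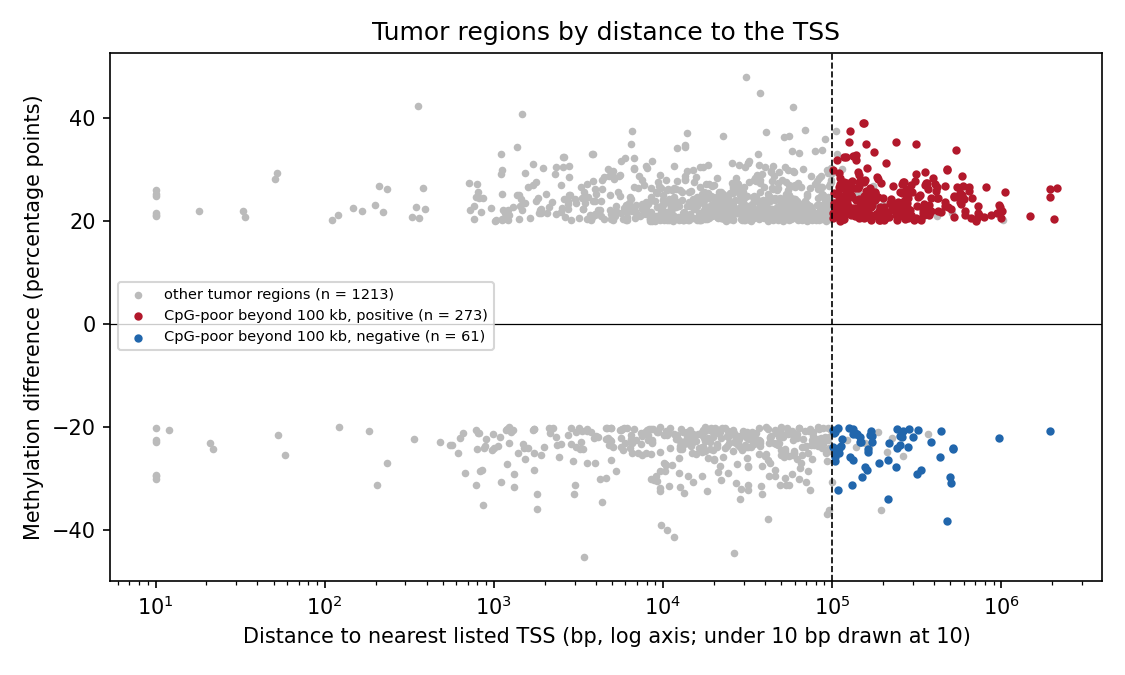
Methylation difference (percentage points) of each of the 1547 tumor regions against its distance to the nearest listed TSS (bp, log axis); regions beyond 100 kb with fewer than 10 CpG sites are red (273 positive) or blue (61 negative), all others grey. No region lies between -20 and 20 points, and the red points outnumber the blue ones.

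The region 151780 bp downstream of the start of the microRNA gene Mir3090 had the largest (chromosome 2, 133716487 to 133716602; 39.0 points, 4 of 5 sites DMCs), outside any gene span. The next, listed under Gm6260 and inside the noncoding gene Gm33925, had the most sites of the 10 (chromosome 3, 143866102 to 143866179; 38.9 points, 8 of 9 sites DMCs). It was followed by regions near Fam173b (37.4 points, 3 of 3 sites), which encodes a mitochondrial lysine methyltransferase, and near the calcium channel gene Trpc7 (35.3 points, 3 of 3 sites, 126453 bp upstream). The region 237742 bp upstream of Cntnap4, a neurexin-family adhesion gene, stood at 35.3 points with 6 of 7 sites DMCs. Those near Gm1653 (34.9 points), N6amt1 (34.8 points), the Y-linked entry Erdr1 (33.65 points), Maf (33.4 points) and Gm9199 (32.7 points) completed the 10. N6amt1 encodes a methyltransferase that acts on a translation release factor, and Maf a leucine zipper transcription factor. Of these 10, 8 lay outside any gene span, as did 7 of the 10 largest negative ones and 61.1% of all 334.

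The largest negative difference lay inside Unc5d, a netrin receptor gene (chromosome 8, 28740942 to 28740973; -38.3 points, 2 of 3 sites DMCs, 478663 bp downstream of the TSS). Next came a region 215293 bp downstream of the TSS of Sipa1l2 and outside the gene (chromosome 8, 125277353 to 125277417; -34.05 points, 3 of 4 sites). A region inside Tbc1d4, whose product controls insulin-driven glucose transporter movement, stood at -32.2 points (2 of 3 sites). The region listed under Gm6994 (-31.2 points) lay inside Enox1, and the one near the sialyltransferase gene St6gal2 (-30.95 points) outside any gene. Regions near Cdh20, Epm2a, 1700003L19Rik, Rps24 and Mir6380 made up the rest, at -29.65 to -28.3 points. The Epm2a region, near the gene of the glycogen phosphatase laforin, was the only 1 of these 10 with every site a DMC (3 of 3).

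**Figure D3:**
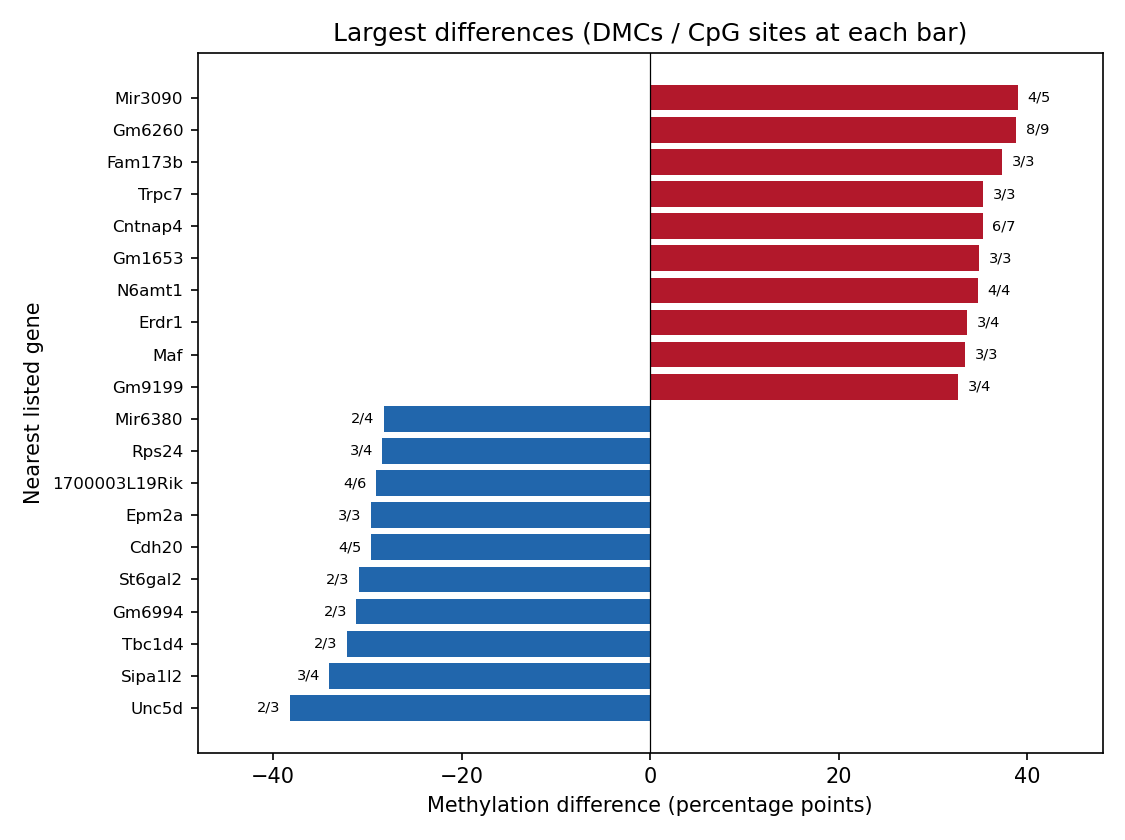
The 10 largest positive (red) and 10 largest negative (blue) methylation differences, in percentage points, by nearest listed gene; the numbers at the bars are DMCs and CpG sites. The positive bars run from 32.7 to 39.0 points and the negative ones from -28.3 to -38.3 points.

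Most of the regions lay outside annotated genes. Of the 334, 204 (61.1%, exact 95% interval 55.6% to 66.3%) overlapped no gene span of RefSeq GRCm38.p6, 48 (14.4%) lay inside the listed nearest gene and 82 (24.6%) inside another gene. Distance was part of the rule, so this split is not a finding. Outside gene spans 174 of 204 regions were positive (85.3%, 79.7% to 89.85%), inside the listed gene 36 of 48 (75.0%, 60.4% to 86.4%) and inside another gene 63 of 82 (76.8%, 66.2% to 85.4%). The intervals overlap. Regions upstream of the listed TSS were positive in 117 of 142 cases and those downstream in 156 of 192.

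How far a region is from a gene start depends on the annotation. The median listed distance was 203.7 kb, and 8 regions lay more than 1000 kb from the nearest listed TSS. The RefSeq promoter table holds no window of chromosome 18 and lacks gene starts on other chromosomes too. The Sulf1 region lies 119849 bp from its listed TSS, but 5307313 bp from the nearest protein-coding start of that table. Counts of regions with a start nearby are therefore lower limits. Of the 324 regions not on chromosome 18, 136 (42.0%) had some gene start of the table within 100 kb, 31 within 10 kb and 4 within 1 kb. Of those 31, the nearest start was that of a long noncoding RNA gene in 28. Of the same 31, 26 were positive, where 81.7% of all 334 were. A protein-coding start lay within 10 kb of 3 regions. They were a region inside Frmd4b, which encodes a scaffold protein (27.5 points, 4859 bp from a start of Frmd4b itself), one listed under Gm10324 (25.7 points) and one listed under LOC100861615 (23.9 points), near Gm53057 and Gm3594.

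By listed TSS, the 5 most distant regions lay on chromosomes 2 and Y. A region 2046622 bp downstream of the TSS of Lrrc4c, a synaptic adhesion gene, held 3 sites within 5 listed bases (20.3 points, 1 DMC). A region 1951038 bp upstream of the recombination gene Rag2, on the same chromosome, stood at 26.1 points (2 of 5 sites). Chromosome Y held the other 3 of the 5 farthest, at 26.4 and -20.8 points under Erdr1 (2146047 and 1932277 bp) and 24.6 points under Gm20854 (1930461 bp). In the RefSeq promoter table, protein-coding starts lay much nearer to these 3. They were 166058 and 47651 bp from the Erdr1 regions and 92265 bp from the Gm20854 region.

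The genes that held regions ranged widely in length. The 130 regions with a host gene had a median host length of 360.5 kb, the shortest host was the pseudogene Gm7004 with 1568 bp, and 45 lay in 37 hosts of over 500 kb. Inside the listed gene and downstream of its TSS, the rule itself requires a span of over 100 kb. Of the 45 regions in hosts of over 500 kb, 36 were positive and 9 negative in the authors' deposited table, where 81.7% of all 334 were positive. The longest protein-coding hosts were Macrod2, an ADP-ribose hydrolase gene (21.9 points), the alpha-catenin gene Ctnna3 (20.1 points) and the glypican gene Gpc5 (22.3 points). None of the regions in these 3 hosts was listed under its host. A region inside the immunoglobulin kappa locus was positive too (24.4 points).

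Some genes held several of the regions. The cadherin gene Cdh4 held 4, all listed under Taf4a and all positive, at 27.6, 22.0, 25.8 and 32.4 points in the order of their position over 149322 bp. Cdh13, which encodes a cadherin without a cytoplasmic tail, held 3 positive ones (20.3 to 26.7 points). Camta1, a calmodulin-binding transcription activator gene, held 2 positive (22.6 and 27.0 points) and 1 negative (-24.2 points). By nearest TSS, Slc10a2, the ileal bile acid transporter gene, had 3 positive regions outside any gene (20.6 to 25.5 points), at 481564 to 1047936 bp. The noncoding 4933406G16Rik and the Y-linked Erdr1 had 2 positive and 1 negative each.

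Among the 38 listed genes with 2 or more of the regions, 29 had positive regions only, 1 had negative ones only and 8 had both. Positive regions made up 81.7% of all 334. Whether signs match within genes or pairs beyond that share was not tested. Neighbouring regions within 10 kb of each other formed 6 pairs, of which 4 were positive in both members and 2 were of opposite sign. The opposite pairs lay inside Auts2 (-21.8 and 25.5 points, 539 bp apart) and upstream of Fgf16 (-23.7 and 20.45 points, 1588 bp apart). Of the 30 pairs within 100 kb, 21 were positive in both members, 8 were opposite and 1 was negative in both. That pair (-23.1 and -20.45 points) lay inside Ccdc178 on chromosome 18.

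Of the 9 gene lists, that of synaptic, cell adhesion and axon guidance genes was met by the most regions. The number of genes in each list was not set against these counts. By nearest or host gene, 38 of the 334 regions (11.4%) touched the list of such genes, with a median difference of 21.7 points. Of these, 31 were positive and 7 negative, where 81.7% of all 334 were positive. In the whole tumor list, 85 of 1547 regions (5.495%) did, 62 of them positive. Many of these genes are long, and the part of gene length in these shares was not tested. Of the 38, 25 lay inside the gene, 20 of them positive. By size, Unc5d and Cntnap4 were followed by a Cdh4 region at 32.4 points and by Cdh20. Other positive regions lay in Tenm4 (26.7 and 25.5 points), a teneurin gene, upstream of the cadherin-family gene Fat3 (25.35 points) and in Opcml (26.6 points), which encodes a GPI-anchored adhesion protein. Negative values stood inside Cdh23 (-25.8 points) and Igsf21 (-23.95 points), and a region in Slit3, the gene of a secreted guidance cue, was at -20.2 points. Both regions under Robo1, a Slit receptor gene, were positive (21.9 and 20.8 points). Tenm2 held a region at -22.9 points and another at 23.2 points.

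Ion channel and neurotransmitter receptor genes had 15 regions (4.49%), 14 positive and 1 negative, where 81.7% of all 334 were positive. In the whole list they had 64 (4.14%), 49 of them positive. Of the 15, 6 lay inside the gene and were positive, among them regions in Asic2, an acid-sensing channel gene (26.3 points), and in Grin2b, an NMDA receptor subunit gene (21.7 and 21.2 points). Outside their genes, after Trpc7, regions near the potassium channel gene Kcnv1 (31.1 points) and the GABA receptor subunit gene Gabrg1 (29.0 points) had the largest values. The negative region was listed under Cacng3 and lay inside Prkcb (-20.55 points).

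Developmental transcription factor genes had 13 regions (3.89%), 12 positive and 1 negative, where 81.7% of all 334 were positive. In the whole list they had 69 (4.46%), 49 of them positive. Of the 13, 11 lay outside the factor gene. After Maf, the largest values were near Prdm13 (27.4 points, 3 of 3 sites DMCs), a neural zinc finger factor gene, and near Id4 (-25.0 points, inside the noncoding A330033J07Rik), whose product inhibits helix-loop-helix factors. Regions near Irx1 (24.2 points) and inside Runx2 (23.4 points), the factor of bone formation, were positive.

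Growth factor, TGF-beta, Wnt and Notch pathway genes had 14 regions (4.19%), 10 positive and 4 negative, where 81.7% of all 334 were positive. In the whole list they had 57 (3.685%), 36 of them positive. The largest value of the 14 was near Dact2 (29.25 points). As ligands, Fgf16 had the pair of opposite sign given above, and a region in the neuregulin gene Nrg3 stood at 20.4 points. Receptor tyrosine kinase genes had both signs. Both regions inside Flt1, a VEGF receptor gene, were positive (28.4 and 22.4 points), and a region outside Ntrk3, a neurotrophin receptor gene, stood at 22.7 points. Those inside Erbb4 (-24.1 points), Alk (-22.9 points) and Ror2 (-20.4 points) were negative. The Wnt receptor gene Fzd1 had 2 positive regions 3853 bp apart (21.5 and 21.9 points). Downstream, a region near Smad2, a TGF-beta signal transducer gene, stood at 28.1 points.

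Genes known for common fragile sites or very great length had 8 regions (2.395%), 6 positive and 2 negative, where 81.7% of all 334 were positive. In the whole list they had 15 (0.970%), 9 of them positive. The values ran from 27.4 points near Nbea to -24.4 points inside the polarity gene Pard3b. The list used for liver metabolism was met by 4 regions (1.20%), all positive, and by 17 in the whole tumor list (1.10%), 11 of them positive. Regions under Slc10a2 and Insig2 are not counted in it. The 4 lay in Ppargc1a, a coactivator gene of gluconeogenesis and mitochondrial growth (23.7 points), in the organic anion transporter gene Slco3a1 (23.4 points) and downstream of Abca13 (23.15 and 21.4 points). The oncogene and suppressor list was met by the 3 Cdh13 regions, which the adhesion list holds too, and the region listed under Foxk1 inside Sdk1 counts in 3 lists (20.8 points). The lists used for imprinted genes and for arsenic or oxidative stress genes were met by 0 regions here, against 5 and 2 in the whole tumor list. These lists are not complete, and N6amt1, named above, is in neither.

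**Figure D4:**
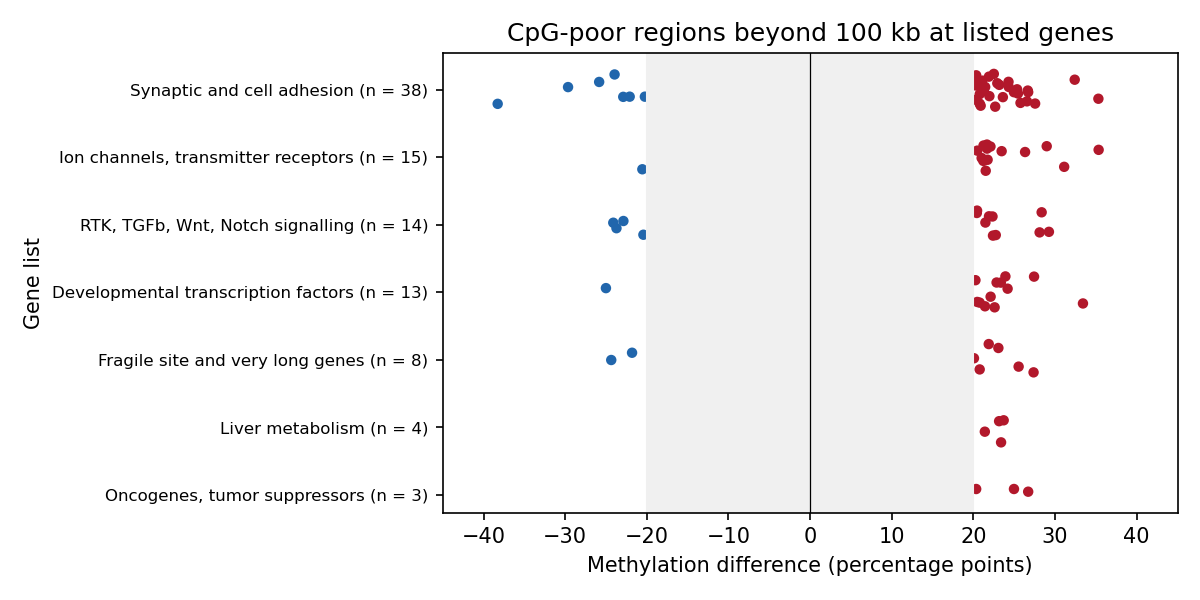
Methylation difference (percentage points) of each region whose nearest or host gene is in a gene list, red for positive and blue for negative; the grey band from -20 to 20 points holds no listed region. Of the 38 adhesion regions 31 are positive, and of the 15 channel and receptor regions 14, where 81.7% of all 334 regions are.

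The regions were spread over every chromosome. On chromosome 5, 32 of the 149 listed tumor regions were of this kind (21.5%, against 21.6% over all chromosomes). Of these 32, 31 were positive and 1 was negative, with 81 of the other 117 tumor regions of that chromosome positive. On chromosome 3, 19 of 20 were positive, where 77.97% of all its listed tumor regions were. On chromosome 2, 20 of 22 were positive, against 78.9% of its list. Chromosome 18 had 5 of each sign among 10, with 55.3% of its list positive, and chromosome 1 had 22 positive and 8 negative, with 66.96% positive in its list. The regions made up 33.9% of the listed tumor regions of chromosome 3 and 33.3% of those of chromosome X, where 17 of 24 were positive against 61.1% of its list. On chromosome Y, 9 of 13 tumor regions were of this kind, 8 of the 9 were positive, and so were 84.6% of its list.

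**Figure D5:**
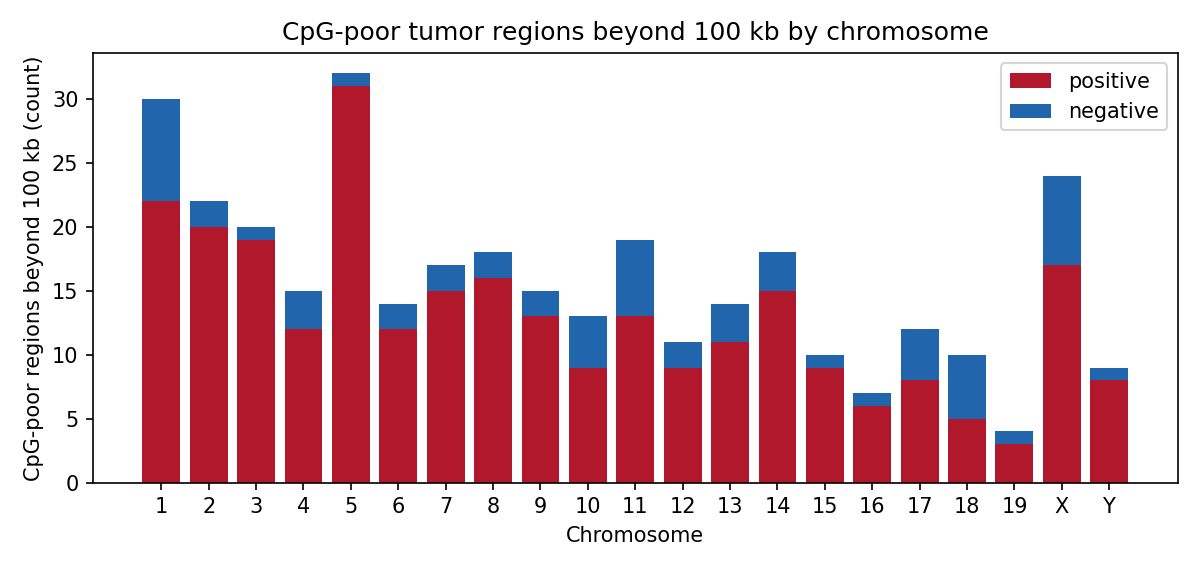
Number of CpG-poor tumor regions beyond 100 kb on each chromosome, stacked as positive (red) and negative (blue). Chromosome 5 has 31 positive and 1 negative, chromosome 18 has 5 of each.

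Values at the limits of the rule show how the choice of limits acts. Just beyond 100 kb lay a region listed under Insig2, a regulator gene of sterol synthesis (29.9 points, 6 of 9 sites DMCs, 100512 bp), and one listed under Cnga3 (20.5 points, 100591 bp). Just within lay regions under Riok2 (-30.6 points, 99812 bp) and Ankrd55 (29.2 points, 99587 bp). With 9 sites there were 7 regions beyond 100 kb, 6 positive, and with 10 sites 4, of which 2 were positive. The largest of the latter were near Lrfn2 (-36.0 points) and inside Fry (33.0 points).

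The lists of the other tissues were shorter. Normal liver had 12 regions of this kind among 107 (11.2%), 3 positive and 9 negative, and non-tumor liver 11 among 57 (19.3%), 7 positive and 4 negative, against 21.6% of the tumor list. The arsenite tumor and non-tumor samples carry the same sample numbers in their titles, so these lists may share mice. No source states that the 3 lists share a sign. The positive shares of the whole normal and non-tumor lists are not given, so the splits above lack that background. Of the 334 tumor regions, 3 overlapped a region of another tissue by at least 1 bp. The region 109015 bp downstream of the TSS of Dact2, a Wnt signalling regulator gene, stood at 29.25 points in tumors (6 of 7 sites DMCs), -24.8 points in normal liver (3 of 7) and 21.15 points in non-tumor liver (3 of 9). The Gm9199 region was at 32.7 points in tumors and -22.9 points in normal liver, and a region under 4933406G16Rik at -20.4 and -20.1 points. Whether these overlaps exceed those of random positions cannot be told, because the positions tested are not listed.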

How the data were processed

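RRBS libraries were made from MspI-cut liver DNA, per the labels' protocols. Trim Galore, Bismark, methylKit and bedtools 2.25.0 on build mm10 are named in the submitters' processing notes. How regions were called, with which coverage and threshold, is not given in the sources used here. The deposited lists give, per the file headers, a methylation difference (read as percentage points from its range), the number of CpG sites and DMCs, and the nearest TSS and its distance for each region. Each value compares 3 with 3 samples, so its depth and precision are unknown.

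Python 3.11.15 with pandas 2.3.3 and SciPy 1.17.1 was used. Listed distances equalled recomputed ones within 1 bp in all 1711 regions. RefSeq accessions had lost separators and zeros; after repair, 325 of the 334 listed genes matched the RefSeq table of GRCm38.p6 by accession, 8 by symbol and 1 by synonym. A host gene was the longest protein-coding gene overlapping a region, or else the longest gene of any kind. Exons and introns were not told apart. Shares carry exact 95% Clopper-Pearson intervals. Their calculation was run on simulated independent counts, which does not check them for regions that share samples. No test was run, because the lists hold no replicates.

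The regions, gene lists and the rule for named genes were chosen with earlier results of these data known. Named were the 10 largest differences of each sign, genes with 3 or more regions, regions shared with another tissue, the largest in each of 9 gene lists, the 5 farthest regions, regions with every site a DMC, and those at the limits of the rule. Further list members and other genes named for a pair of regions, a host of great length or a nearby RefSeq start were chosen after their values were seen. The sequences of the largest regions were planned but no genome was used, so sequence was read only where a RefSeq promoter window covered a region.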

Additional observations from a re-analysis of the deposited data

How the results depend on the processing

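The count of regions followed the limits: 552 beyond 50 kb, 170 beyond 200 kb, 45 beyond 500 kb and 216 with fewer than 5 CpG sites. It was 194 with at least 2 DMCs, 72 with at least 3 and 106 at 25 points or more. With no gene start of the RefSeq promoter table within 100 kb it was 188. The last setting, at least 3 DMCs, protein-coding starts and leaving out chromosome Y were chosen after seeing the data. The RefSeq settings leave out chromosome 18. The promoter table lacks gene starts on other chromosomes too, so a region can pass these settings because a start is missing. The positive share stayed within its interval in 12 of 14 alternatives. It was 88.9% beyond 500 kb, and 18.3% with the sign turned over, which the construction sets. The share outside any gene was 86.7% beyond 500 kb, 66.5% with no start of the promoter table within 100 kb and 72.5% with protein-coding spans only. The share inside the listed gene was 4.44% beyond 500 kb. The median size was 27.25 points at 25 points or more. The 3 positions shared with another tissue also overlapped by at least 50% of the shorter region. No paired analysis was possible because the lists hold no values per sample, and for the same reason no replicate could be left out. Read depth, unknown here, limits every value.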

Other observations

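Regions near 2 chemokine receptor genes, singled out after their values were seen, were all 4 positive in the authors' deposited table, where 81.7% of the 334 regions were. Cxcr4, the gene of a receptor for the chemokine CXCL12, had regions 120709 and 195072 bp upstream of its TSS, at 25.9 and 27.2 points (2 of 4 and 2 of 3 sites DMCs). Ackr3, which encodes a scavenging receptor for the same chemokine, had regions 122924 and 148967 bp downstream of its TSS, at 27.3 points (1 of 3 sites) and 21.9 points (3 of 6 sites). The first 3 lay outside any gene span and the last inside the noncoding gene Gm34992. Prkd1, a serine/threonine kinase gene, held 2 positive regions inside its span, at 27.75 and 27.2 points.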
